A study of Mus musculus with 9 samples.

Results

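The genes described here encode ligands and receptors of the epidermal growth factor (EGF) family. The ligands are Areg, Ereg, Hbegf, Tgfa, Btc and Nrg1, the receptors are Egfr, Erbb2 and Erbb3, and Lrig1 encodes a membrane protein that restrains these receptors. These 10 genes were taken by symbol from the 50600 genes of the deposited tables. A level of at least 1 TPM (counts scaled for gene length and library size) in at least 1 library was required for testing. It left 16208 genes, among them 9 of the 10 members, and Nrg1 was not tested. RNA was sequenced in 9 mouse libraries that fall into 3 groups of 3. The first 2 groups were organoids, cultures of small intestinal epithelium, from wildtype C57BL/6 mice aged 2 to 5 months. They were kept for 24 hr in equal parts of organoid medium and of medium conditioned by other cultures. WT-cM came from wildtype organoids and T-cM from tumoroids. The third group was untreated tumoroids, grown from intestinal tumours of Apc1638N/+ mice of mixed strain more than 6 months old, which carry 1 mutant copy of the Wnt pathway gene Apc. The labels give recombinant EGF at 50 ng/ml, Noggin and R-spondin1 for every culture, whereas the study's methods describe tumoroid medium without R-spondin1. Receptor ligand was thus added to all groups.

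The titles of the 6 organoid libraries and their treatment fields name opposite media. The groups are named here by title, and every direction between them turns round under the treatment field. Tumoroids were therefore compared mainly with the 6 organoid libraries together, which does not depend on that label. Same-numbered organoid libraries are taken here to share a mouse, because the study fitted a sample effect over them. The tumoroids came from 3 other mice. The strains are those of the labels, whereas the study's methods give a mixed background for all mice. Labelled strain, age, medium and mice differ between tumoroids and organoids and cannot be told apart from the tumour origin. Between 16541635 and 25170966 reads were counted per library. The summed level of 7 epithelial markers was 10330 to 14770 TPM in organoids and 11750 to 13690 TPM in tumoroids, although singly Vil1 (log2 fold change −2.15), Krt19 (−1.11) and Krt8 (−0.75) were lower and Krt18 (1.38) was higher. The summed level of 5 enterocyte markers was 21080 to 50380 TPM in organoids and 31.4 to 313.6 TPM in tumoroids, with 5 of 5 lower. The sum of 6 Paneth cell markers was 13720 to 17340 TPM against 811 to 6433 TPM, and most of it in organoids was Defa24. Of these 6 genes 3 were lower in tumoroids, Mmp7 was higher (log2 fold change 1.98, adjusted p = 0.0022) and 2 did not pass. Fibroblast and endothelial marker sums were at most 1.5 and 3.06 TPM in any library. In bulk RNA, fewer cells of a type and less RNA per cell cannot be told apart.

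Ligands of this family are made as membrane proteins and released by metalloproteases such as ADAM17. Amphiregulin (Areg), TGF alpha (Tgfa) and EGF bind the EGF receptor, the products of Ereg, Hbegf and Btc also bind ERBB4, and the neuregulins bind ERBB3 or ERBB4. ERBB2 has no known ligand and ERBB3 has a weak kinase, so these receptors signal as dimers with other members. Activated receptors signal through RAS, MEK and ERK and through PI3K and AKT, and in the intestine EGF sustains the growth of crypt cells.

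Between the organoid groups, none of the 9 tested members passed the test. Between tumoroids and all organoids, Hbegf, Btc and Egfr were higher in tumoroids and Areg and Ereg were lower, whereas Tgfa, Erbb2, Erbb3 and Lrig1 did not pass. The passing share, 5 of 9 members, stood beside 50.4% of all tested genes (edgeR quasi-likelihood test, Benjamini-Hochberg adjusted p under 0.05). In that background 29.6% were higher and 20.8% lower. With the organoid libraries of each mouse summed, 3 members passed, all higher, beside 38.8% of all genes, and Areg and Ereg were lost. On the deposited TPM values 7 members passed, 6 higher and 1 lower, beside 59.3% of all genes. With a log2 fold change above 1 in size required as well, Hbegf, Btc and Ereg remained, 3 of 9 against 33.1% of all genes. The members' median log2 fold change was 0.14 and that of all tested genes was 0.16.

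**Figure D1:**
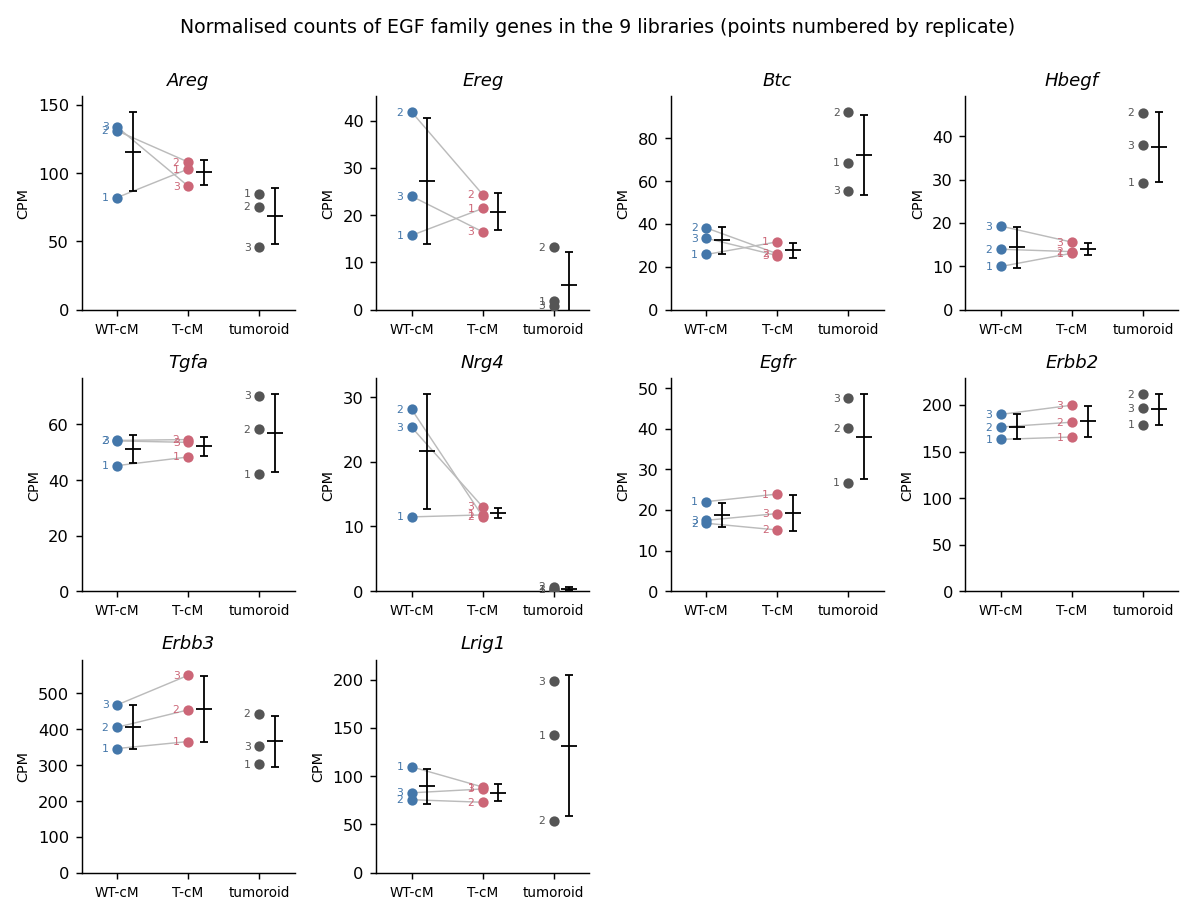
Normalised counts (CPM, counts scaled to library size with TMM factors; linear axes from 0) of the 9 tested members and of Nrg4 in WT-cM-titled organoids, T-cM-titled organoids and tumoroids. Points are libraries numbered by replicate, grey lines join organoid libraries of the same mouse, and black bars show mean ± SD (n = 3; the bar of Ereg in tumoroids is cut at 0). Btc, Hbegf and Egfr lie higher in all 3 tumoroids than in all 6 organoid libraries, and Ereg and Nrg4 lie lower.

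Amphiregulin, encoded by Areg, is a low-affinity ligand of the EGF receptor. Normalised counts of Areg (CPM, reads scaled to library size with TMM factors) were 103, 108 and 90.5 CPM in T-cM-titled organoids 1 to 3, 82.1, 131 and 134 CPM in WT-cM-titled organoids and 85.0, 75.3 and 45.8 CPM in tumoroids. Tumoroids 2 and 3 lay below every organoid library, and tumoroid 1 lay above WT-cM-titled organoid 1, so the groups overlapped. The log2 fold change of tumoroids against all organoids was −0.65 (SE 0.22, adjusted p = 0.035). The call did not hold when the organoid libraries of each mouse were summed (−0.69, adjusted p = 0.057). It was also lost without tumoroid 3 (−0.44, adjusted p = 0.092) and without the organoids of mouse 2 (−0.57, adjusted p = 0.13) or mouse 3 (−0.63, adjusted p = 0.091). With upper-quartile factors it was −0.53 (adjusted p = 0.087). On the deposited TPM values the difference was −0.16 (adjusted p = 0.53). On that scale the median of all tested genes was 0.52.

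Epiregulin, the product of Ereg, is a ligand of EGFR and ERBB4. Its normalised counts were 21.4, 24.4 and 16.5 CPM in T-cM-titled organoids, 15.7, 41.8 and 24.0 CPM in WT-cM-titled organoids and 1.77, 13.2 and 0.790 CPM in tumoroids. All 3 tumoroids were below all 6 organoid libraries, but tumoroid 2 was close to the lowest organoid library while the other two had 39 and 23 counts. Ereg fell by 2.18 on the log2 scale in tumoroids (SE 0.78, adjusted p = 0.041). The size depended on tumoroid 2, without which the log2 fold change was −4.25 (adjusted p = 0.00019). The call was lost with organoid libraries summed by mouse (−2.24, adjusted p = 0.098). Leaving out tumoroid 1 or 3, or the organoids of mouse 1, 2 or 3, gave −1.77, −1.67, −2.35, −1.89 and −2.29 with adjusted p between 0.061 and 0.14. The summed enterocyte markers, at 95, 313.6 and 31.4 TPM in tumoroids 1 to 3, followed the same order as Ereg and were also below the organoids, and their part in the Ereg values was not tested. The antisense gene Gm19610, which shares 152 bases with the Ereg locus, had 5 to 44 counts, and the strand setting of the counting is not given in the sources used here.

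Betacellulin, encoded by Btc, binds EGFR and ERBB4. It measured 31.6, 26.1 and 25.2 CPM in T-cM-titled organoids, 25.7, 38.1 and 33.3 CPM in WT-cM-titled organoids and 68.5, 92.2 and 55.5 CPM in tumoroids. Every tumoroid lay above every organoid library. Btc was 2.41-fold higher in tumoroids (log2 fold change 1.27, SE 0.18, adjusted p = 0.00033), and the log2 value stayed between 1.04 and 1.71 in the 15 alternatives tried.

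Heparin-binding EGF-like growth factor, the product of Hbegf, is an early-response gene product that binds EGFR and ERBB4. Counts were 13, 13.4 and 15.6 CPM in T-cM-titled organoids, 9.95, 13.9 and 19.3 CPM in WT-cM-titled organoids and 29.2, 45.4 and 37.9 CPM in tumoroids. Again the tumoroids did not overlap with the organoids. Hbegf was 2.64-fold higher in tumoroids (log2 fold change 1.40, SE 0.21, adjusted p = 0.00048; range over alternatives 1.22 to 1.86). The immune marker sum also differed between these groups, at 1.02 to 2.80 TPM in organoids and 13.8, 32.3 and 61.6 TPM in tumoroids 1 to 3. Of its 6 genes, Cd68 reached 58.3 TPM and Csf1r 15.6 TPM in tumoroids, while the pan-leukocyte gene Ptprc was at most 0.14 TPM in any library, the T cell gene Cd3e had 0 counts in every library and the macrophage gene Adgre1 had 0 counts in every tumoroid. Their part in the Hbegf values was not tested.

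Transforming growth factor alpha, encoded by Tgfa, binds EGFR. It was at 48.3, 54.6 and 53.5 CPM in T-cM-titled organoids, 45.2, 54.2 and 54.1 CPM in WT-cM-titled organoids and 42.1, 58.3 and 70.3 CPM in tumoroids. The tumoroids spanned the organoid values. The log2 fold change was 0.14 (SE 0.16, 95% interval −0.22 to 0.50, adjusted p = 0.50), so changes within that interval were not excluded. On TPM it was 0.61 with an adjusted p of 0.015, beside the median of 0.52 over all genes on that scale.

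Neuregulin 1, a ligand of ERBB3 and ERBB4, had 0 to 2 counts in organoid libraries and 0 to 5 in tumoroids. The CPM that 3 counts stand for, used as the floor, was 0.103 to 0.204 depending on the library, and no direction was read for Nrg1. This floor covers counting error only. The other ligands of the family were looked up as well. Egf had 0.611 to 1.23 CPM in the 9 libraries, Epgn at most 0.426 CPM, Nrg3 0 to 1 count and Nrg2 0 counts, and none passed the expression filter. The measured family ligand RNA was therefore almost entirely that of Areg, Btc, Hbegf, Tgfa, Ereg and Nrg4.

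Nrg4 encodes neuregulin 4, a ligand of ERBB4. It was at 11.8, 11.5 and 13 CPM in T-cM-titled organoids, 11.5, 28.1 and 25.3 CPM in WT-cM-titled organoids and 0.227, 0.669 and 0.275 CPM in tumoroids. All tumoroids were far below all organoids (log2 fold change −5.34, SE 0.47, adjusted p = 1.8e-05). Nrg4 reached the TPM filter only through the organoids, at 4.67 to 11.1 TPM beside 0.12 to 0.41 TPM in tumoroids. The tumoroids had 5, 18 and 8 counts, not far above the floor of 3, so the size of this difference is uncertain. Nrg4 was also lower in T-cM-titled than in WT-cM-titled organoids (log2 fold change −0.74, SE 0.15, adjusted p = 0.0016), but in pair 1 the values differed little, so that 1 of 3 pairs was higher. The log2 ratios of Nrg4 in pairs 1 to 3 were 0.04, −1.28 and −0.96, and those of the summed enterocyte markers were 0.06, −0.55 and −0.61, although of these 5 markers 2 were lower, 1 was higher and 2 did not pass between the organoid groups. Tumoroid 2 was the highest tumoroid for both, and the part of these markers in the Nrg4 values was not tested. Erbb4, which encodes its receptor, had 0 counts in every library.

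Levels were compared between ligands only as TPM, which are scaled for length. In organoids Areg stood first at 177 to 259 TPM in each library, and the ranges of Tgfa (18.3 to 20.7 TPM), Btc (13.3 to 20.2 TPM), Hbegf (11 to 18.6 TPM) and Ereg (9.5 to 24.3 TPM) overlapped. In tumoroids Areg was again first at 135 to 231 TPM. Btc (44.0 to 76.1 TPM) and Hbegf (40.3 to 71.3 TPM) overlapped with each other, Tgfa followed at 21.3 to 38.8 TPM and Ereg was last of the 5 at 0.690 to 11.9 TPM. The summed TPM of the 11 family ligands was 237.2 to 349.2 in organoids and 276.6 to 425.2 in tumoroids.

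Areg made up 73.6% to 76.4% of the summed ligand TPM in the 6 organoid libraries and 66.9%, 54.4% and 48.8% in tumoroids 1 to 3. Hbegf made up 4.03% to 6.48% in organoids and 11.8% to 20.7% in tumoroids. The share of Btc was 4.94% to 6.30% in organoids and 14.5% to 17.9% in tumoroids. Ereg held 3.94% to 6.96% and 0.249% to 2.80%. Nrg4 held 1.63% to 3.18% in organoids and 0.035% to 0.0964% in tumoroids. The Areg share was thus nearly the same in the organoid libraries, while those of Ereg, Hbegf and Nrg4 varied more. Each tumoroid lay outside the organoid range in the same directions for Areg, Hbegf, Btc and Ereg. These shares are given as a description, with no test.

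**Figure D2:**
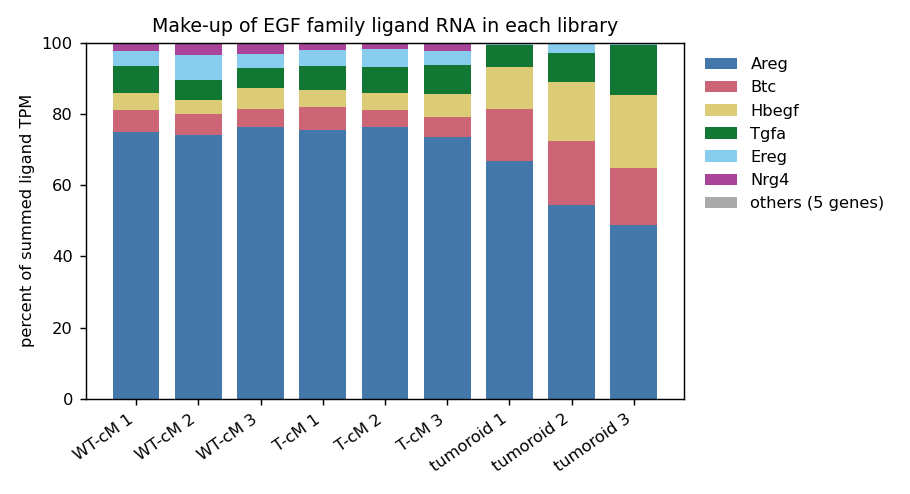
Share of each ligand in the summed TPM of the 11 family ligands (percent, stacked to 100) in each of the 9 libraries, with Nrg1, Egf, Epgn, Nrg2 and Nrg3 summed as others. Areg makes up 73.6% to 76.4% in the organoid libraries and 48.8% to 66.9% in the tumoroids, where Btc and Hbegf take larger shares.

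Areg, Ereg and Btc are neighbours on chromosome 5 (GRCm38), with Epgn beside them. Ereg spans chr5:91074622-91093646 and Areg chr5:91139599-91148432, both on the plus strand, and Btc spans chr5:91357261-91402994 on the minus strand. The outer ends of Ereg and Btc are 328.4 kb apart. Within this stretch the tumoroid difference changed sign, with Areg and Ereg lower and Btc higher. Parm1, the next gene drawn beyond Btc, starts 378.0 kb from the Areg start and was also higher in tumoroids (log2 fold change 1.91, SE 0.21, adjusted p = 6.6e-05). It was named after its value was seen, and other genes of the region passed in both directions, some with larger differences.

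**Figure D3:**
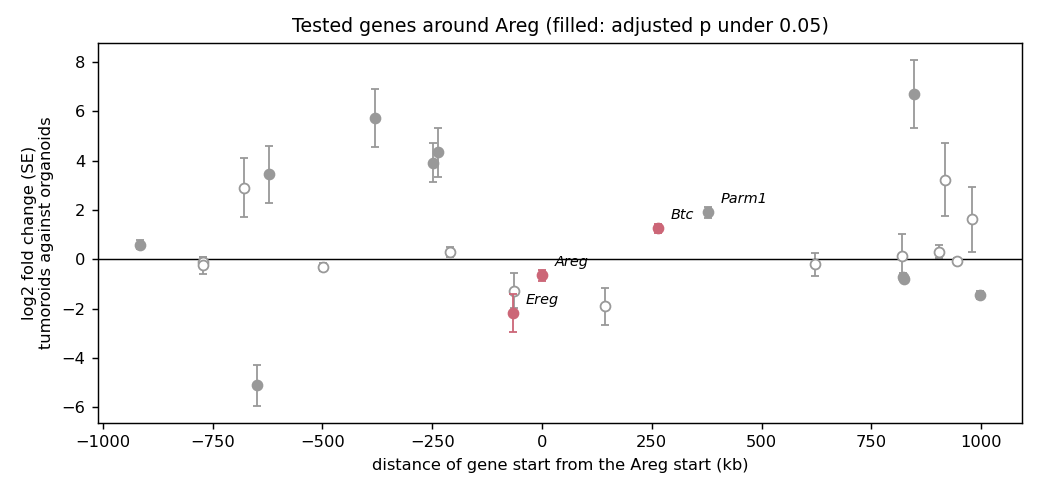
Log2 fold change of tumoroids against all organoids (± SE) for the 27 tested genes of the 53 within 1000 kb of the Areg start, by the distance of their start from it. Filled points passed at an adjusted p under 0.05. Areg and Ereg (red) lie below 0 and Btc (red) lies above 0, as does Parm1. Other filled points lie on both sides of 0, some farther from it.

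The 250 bases before the start of Areg and of Btc are shown because these neighbours moved in opposite directions. The sequences are from RefSeq (GRCm38.p6) and run 5′ to 3′ on the strand of the gene, with the capitals marking matches to the motifs searched.
Areg (chr5:91139349-91139598, plus strand): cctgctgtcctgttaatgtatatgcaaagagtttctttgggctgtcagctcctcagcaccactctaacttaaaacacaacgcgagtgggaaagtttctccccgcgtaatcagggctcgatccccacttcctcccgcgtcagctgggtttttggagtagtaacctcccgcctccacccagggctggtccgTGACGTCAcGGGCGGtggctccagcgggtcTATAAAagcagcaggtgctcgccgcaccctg
Btc (chr5:91402995-91403244, minus strand): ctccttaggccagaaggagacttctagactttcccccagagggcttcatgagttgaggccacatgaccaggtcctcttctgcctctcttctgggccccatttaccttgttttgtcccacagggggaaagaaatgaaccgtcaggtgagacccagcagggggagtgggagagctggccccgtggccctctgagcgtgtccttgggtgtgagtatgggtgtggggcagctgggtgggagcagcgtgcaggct

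The Areg window held the cAMP response element TGACGTCA, starting 61 bases before the gene start, a GC box (GGGCGG) at 52 bases and a TATA box (TATAAA) at 31 bases. The Btc window held none of the 6 motifs searched. These were the 3 above and those of AP-1 (TGANTCA), TEAD (GGAATG) and TCF/LEF (CTTTGAT), each on both strands. Of 32851 RefSeq promoters of the same length, 1.55% held the cAMP response element, 32.7% a GC box, 12.4% a TATA box, 6.75% AP-1, 12.6% TEAD and 3.21% TCF/LEF letters. Promoters of 6 of the 10 members were matched and used, and those of Ereg, Hbegf, Nrg1 and Erbb3 were not. For the members, chromosome 18, where Hbegf lies, was left out of the search, so no motifs were read for Hbegf. Egfr had 1 GC box at 9 bases, Tgfa had 2 (at 126 and 15 bases), Lrig1 had 2 (at 162 and 71 bases) and Erbb2 had the TEAD letters at 88 bases. A match of letters is a description and not a binding site.

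Among the receptors, Egfr encodes the EGF receptor itself (chr11:16752203-16918158, plus strand). Normalised counts were 23.9, 15.1 and 19.1 CPM in T-cM-titled organoids, 22, 16.7 and 17.4 CPM in WT-cM-titled organoids and 26.6, 40.0 and 47.5 CPM in tumoroids. All tumoroids were above all organoids, with tumoroid 1 close to the highest organoid library. The log2 fold change was 1.00 (SE 0.21, adjusted p = 0.0033), and it ranged from 0.79 to 1.30 over the 15 alternatives, with an adjusted p under 0.05 in each. It stood just under 1, so Egfr was not counted where a log2 fold change above 1 was also required. Egfros, an antisense gene within the Egfr locus, had 0 to 52 counts where Egfr had 222 to 1382.

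Erbb2 and Erbb3 encode receptors that signal as partners in dimers. Erbb2 was at 166, 182 and 200 CPM in T-cM-titled organoids, 163, 176 and 190 CPM in WT-cM-titled organoids and 179, 212 and 196 CPM in tumoroids. Erbb3 was at 366, 454 and 550 CPM, 346, 406 and 468 CPM and 302, 443 and 353 CPM in the same order. Neither separated tumoroids from organoids. The log2 fold change was 0.12 for Erbb2 (95% interval −0.14 to 0.39, adjusted p = 0.41) and −0.24 for Erbb3 (−0.65 to 0.18, adjusted p = 0.32). On TPM, Erbb2 passed (0.64, adjusted p = 0.0014) and Erbb3 changed sign (0.28), beside the TPM median of 0.52 over all genes.

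In TPM, Erbb3 made up 63.4% to 69.6% of the summed receptor RNA in organoids and 57.8% to 62.5% in tumoroids. Erbb2 made up 29.2% to 34.5% and 34.5% to 39.4%. Egfr was the rarest receptor detected, with 1.19% to 2.23% in organoids and 2.71% to 4.17% in tumoroids. In every library the order was Erbb3, then Erbb2, then Egfr, as a description with no test.

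Lrig1 encodes a brake that promotes loss of EGF family receptors from the membrane and is also used as a marker of intestinal stem cells. It was at 88.8, 73.0 and 86.7 CPM in T-cM-titled organoids, 110, 75.6 and 82.8 CPM in WT-cM-titled organoids and 143, 54.1 and 198 CPM in tumoroids. Tumoroids 1 and 3 were above every organoid library and tumoroid 2 was below them all. The log2 fold change was 0.61 (SE 0.32, 95% interval −0.10 to 1.33, adjusted p = 0.14). Without tumoroid 2 it was 0.97 and passed (adjusted p = 0.0020). On TPM it was 0.94 (adjusted p = 0.035), beside the TPM median of 0.52. The summed level of 5 crypt stem markers was also lowest in tumoroid 2, at 467.7, 219.7 and 395.9 TPM in tumoroids 1 to 3, and in organoids it was 59.5 to 369.3 TPM. Of these 5 genes 3 were higher in tumoroids, Lgr5 (log2 fold change 6.47), Ascl2 (3.39) and Smoc2 (1.83). Olfm4, which gave 251 TPM of the highest organoid sum, and Rgmb did not pass. Its part in the Lrig1 values was not tested. Slc25a26 shares 144 bases with the Lrig1 locus on the opposite strand and had 131 to 381 counts.

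**Figure D4:**
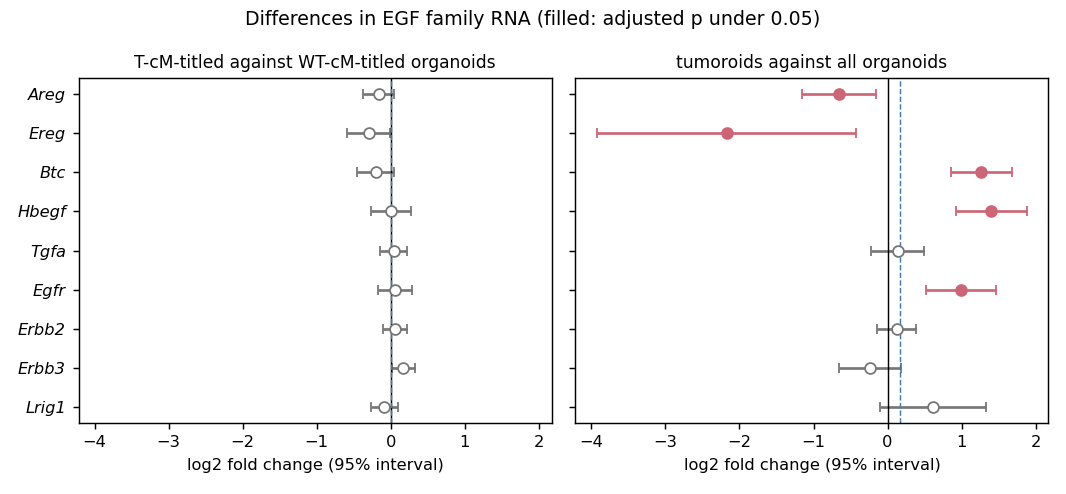
Log2 fold change with 95% interval of the 9 tested members between the organoid groups (left) and between tumoroids and all organoids (right). Filled red points passed at an adjusted p under 0.05, open grey points did not, and the dashed blue line is the median of all 16208 tested genes (0 on the left, 0.16 on the right). No member passed on the left, and on the right Areg and Ereg passed below 0 and Btc, Hbegf and Egfr above 0, of which Areg and Ereg did not pass with organoid libraries summed by mouse.

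Tumoroids were also compared with each organoid group alone. These comparisons share the tumoroid libraries with each other, so each value is given for itself. With WT-cM-titled organoids as the reference, values were 1.38 for Hbegf, 1.15 for Btc, 1.02 for Egfr, −0.75 for Areg and −2.37 for Ereg on the log2 scale. The adjusted p values were 0.0023, 0.0024, 0.0097, 0.037 and 0.048 in that order, so 5 of 9 members passed beside 41.9% of all genes. With T-cM-titled organoids as the reference they were 1.42 for Hbegf, 1.38 for Btc and 0.97 for Egfr (adjusted p = 0.0019, 0.00087 and 0.012). Areg (−0.55, adjusted p = 0.10) and Ereg (−1.98, adjusted p = 0.082) did not pass there, so 3 of 9 members did beside 44.5% of all genes.

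The comparison between the organoid groups asks whether medium from tumoroids altered expression in normal epithelium. With the mouse as a block, 0 of 9 members passed beside 10.1% of all tested genes, and 2 members had an unadjusted p under 0.05. DESeq2 and limma voom also called 0, each with 1 member at an unadjusted p under 0.05. The log2 fold changes, T-cM-titled over WT-cM-titled, ran from −0.30 for Ereg to 0.17 for Erbb3, and the 95% intervals of all 9 lay between −0.59 and 0.32. A change of the size seen for Btc or Hbegf in tumoroids thus lay outside the interval of every member. The T-cM-titled and WT-cM-titled values overlapped for each of the 9 members. For comparison, 10.4% of all genes did not overlap. In the same direction in all 3 pairs were 2 of 9 members, Erbb2 and Erbb3, both higher under the T-cM title, beside 41.2% of all genes.

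For Areg, Ereg and Btc the mice differed. In pair 1 the log2 ratio of T-cM-titled over WT-cM-titled organoids was 0.33 for Areg, 0.45 for Ereg and 0.30 for Btc. In pair 2 it was −0.28, −0.78 and −0.55, and in pair 3 −0.56, −0.54 and −0.40, so these ligands were higher in pair 1 and lower in pairs 2 and 3. Without mouse 1, all 3 passed as lower under the T-cM title, with log2 fold changes of −0.41 for Areg (adjusted p = 0.00018), −0.65 for Ereg (adjusted p = 1.8e-06) and −0.46 for Btc (adjusted p = 0.00089). In that setting 17.7% of all genes passed. Mouse 1 gave the only pair in which these ligands were higher, and only pairs 2 and 3 were left to fit. These calls thus follow from the pair values above and are not separate support. The summed enterocyte markers, most of which was Fabp1, had log2 ratios of 0.06, −0.55 and −0.61 in pairs 1 to 3. Singly the 5 markers differed, with Fabp1 and Lct lower, Alpi higher in 3 of 3 pairs (log2 fold change 0.75, adjusted p = 4.3e-08) and Apoa1 and Sis not passing. Their part in the ligand values was not tested.

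Beyond the members, 73 genes that act around the receptors were examined in 6 lists, and 65 of them were tested. Between tumoroids and all organoids 33 of the 65 passed, 20 higher and 13 lower (50.8%, beside 50.4% of all genes). Adam12, Spred3 and Nrg4 reached the filter in tumoroids or organoids only, and without them 18 were higher and 12 lower of 62. With TPM in place of counts the split was 39 higher and 5 lower, beside 59.3% of all genes passing. With organoid libraries summed by mouse it was 14 and 11, beside 38.8%. The lists differed from each other in their counts, which are given as a description.

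The list of feedback regulators and early genes that ERK signalling induces had 10 of 16 higher, 1 lower and 5 that did not pass. These 5 were Dusp6 (log2 fold change 0.84), Etv4 (0.72), Fosl1 (0.51), Spred2 (0.35) and Spry4 (0.32), with adjusted p between 0.064 and 0.65. Spred3 reached the TPM filter only in tumoroids, and without it 9 of 15 were higher and 1 lower, a passing share of 66.7% beside 50.4% of all genes (29.6% higher). The median log2 fold change of these 15 was 1.11 and that of all genes 0.16. Ier3, an immediate early gene product, was at 6.05 to 9.43 CPM in organoids and 112, 237 and 260 CPM in tumoroids (log2 fold change 4.64, adjusted p = 1.4e-06). Spry1, an inhibitor of receptor to RAS signalling, was at 3.39 to 6.43 CPM in organoids and 28.3, 19.5 and 24.4 CPM in tumoroids (2.34, adjusted p = 3.6e-05). Phlda1 (2.06), the ERK phosphatase gene Dusp4 (1.48), the ETS factor gene Etv5 (1.35), the early growth response gene Egr1 (1.24), Fos (1.14) and Spred1 (0.84) were higher too, as were Spry2 (1.11) and the low-count gene Spred3 (1.83). Dusp5, another ERK phosphatase gene, was lower, at 30.7 to 52.1 CPM in organoids and 5.35, 6.77 and 11.8 CPM in tumoroids (−2.48, adjusted p = 0.00013). Tumoroids did not overlap with organoids for 10 of the 15 genes, beside 45.8% of all genes tested.

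**Figure D5:**
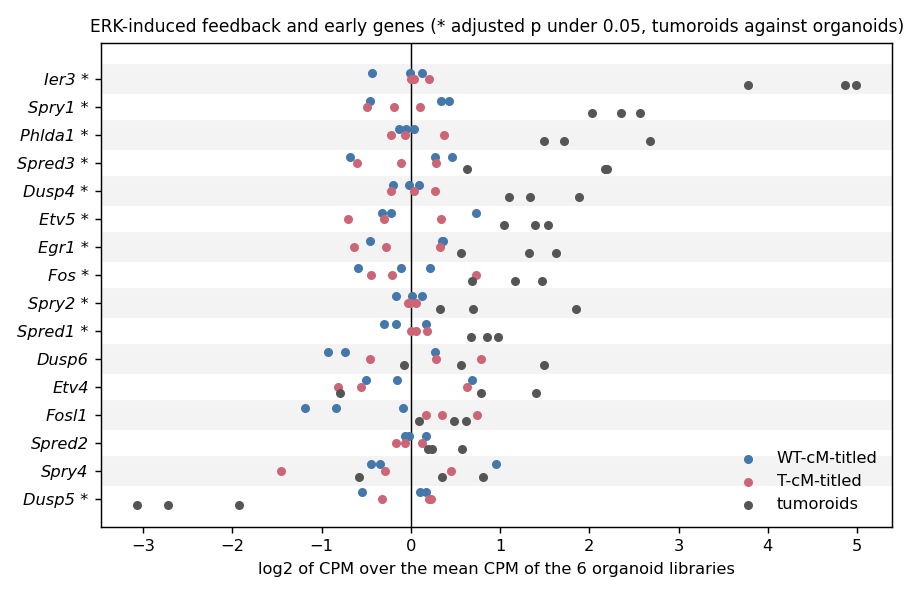
Log2 of CPM in each library over the mean CPM of the 6 organoid libraries, for the 16 genes of the list of ERK-induced feedback and early genes. Points are libraries of the 3 groups, and an asterisk marks an adjusted p under 0.05 between tumoroids and all organoids. Ier3, Spry1 and Phlda1 lie furthest to the right in tumoroids and Dusp5 furthest to the left.

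Of 8 tested genes for shedding of ligands, 5 were higher in tumoroids and none was lower. One of them, Adam12, reached the TPM filter only in a tumoroid, and without it 4 of 7 were higher (57.1%, beside 29.6% of all genes higher). Rhbdf1, which encodes an inactive rhomboid that helps to traffic ADAM17, was at 17.3 to 31.8 CPM in organoids and 74.2, 82.6 and 69.7 CPM in tumoroids (log2 fold change 1.66, adjusted p = 7.4e-06). Adam15 (0.94), Adam9 (0.70) and Adam17 (0.48, adjusted p = 0.040) were also higher. Adam12 had 0 counts in all organoids and was at least 6.53-fold higher in the mean of tumoroids, counting 3 reads as the floor in an organoid library. That bound rested on tumoroid 3, at 3.50 CPM beside 0.227 and 0.260 CPM in tumoroids 1 and 2, and was 1.2-fold without it. The list's median log2 fold change was 0.48 without Adam12 and 0.59 with Adam12 at that bound, beside 0.16 for all genes.

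Among 11 other brakes on the receptors, 2 were higher and 3 lower (45.5% passing, beside 50.4% of all genes). Socs5, which encodes a suppressor of cytokine signalling that targets EGFR, rose from 3.23 to 6.19 CPM in organoids to 28.1, 46.2 and 44.7 CPM in tumoroids (log2 fold change 3.08, adjusted p = 8.6e-06), and Lrig2 was higher by 0.58. Lrig3 (−1.32), Socs4 (−0.83) and Ptpn2 (−0.57) were lower. Errfi1, which encodes the feedback inhibitor MIG6, was at 65.4, 39.8 and 111 CPM in tumoroids around the organoid range and did not pass (0.38, adjusted p = 0.26).

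Adaptors and RAS-MAPK genes had 2 higher and 5 lower of 19 (36.8% passing, beside 50.4% of all genes). Gab1, which encodes a docking protein for PI3K and SHP2, was higher (1.02, adjusted p = 0.00094), as was Braf (0.48). Map2k2, which encodes MEK2, fell from 314 to 408 CPM in organoids to 109, 108 and 106 CPM in tumoroids (−1.71, adjusted p = 1.2e-05). The scaffold gene Ksr1 was lower by more (−2.39, adjusted p = 5.7e-06), and Sos2 (−0.82), Sos1 (−0.54) and Hras (−0.51) were lower as well. In the PI3K-AKT list, where 4 of 10 genes passed beside the same 50.4%, Akt2 was higher (0.41) and 3 genes were lower, among them the regulatory subunit genes Pik3r1 (−0.62) and Pik3r2 (−0.36).

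Between the organoid groups 5 of the 65 genes passed (7.69%, beside 10.1% of all genes), 4 higher and 1 lower under the T-cM title. Rhbdf1 was at 26.1, 31.8 and 27.8 CPM in T-cM-titled and 20.2, 17.3 and 22.2 CPM in WT-cM-titled organoids (log2 fold change 0.53, SE 0.11, adjusted p = 0.0025), without overlap. Dusp6, which encodes an ERK phosphatase, was at 25.4, 42.5 and 60.4 CPM and 18.4, 21 and 42.2 CPM (0.67, SE 0.11, adjusted p = 9.3e-05), with each of 3 pairs higher and the groups overlapping. Pik3r3 (0.42, adjusted p = 0.044) and the low-count gene Fosl1 (1.11, adjusted p = 0.0097) were also higher in 3 of 3 pairs, and the lower gene was Nrg4. Fosl1 fell outside the rule on counts and was named after its value was seen. These calls depended on the block and on single mice. None of the 65 passed without the block or without mouse 2, where 0 and 1 of all 16208 genes passed. Without mouse 3, 2 passed beside 3.29% of all genes, and without mouse 1, 8 passed beside 17.7%.

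The genes whose pattern over the 9 libraries was nearest to that of each member were ranked among 10668 genes with a mean of at least 100 counts, by the root mean square difference of centred log2 CPM. Among the nearest to Hbegf were Tuft1 (0.14) and Nudt4 (0.18), where Hbegf itself varied with an SD of 0.72. Nearest to Btc were Cbfa2t3 (0.17), Vsig10 (0.19) and Zkscan7 (0.19), and nearest to Egfr were Adgrl2 (0.10), 2700049A03Rik (0.14) and Mbnl1 (0.14). For Areg they were Rhobtb3 (0.14), Rmdn1 (0.16) and Ndufv1 (0.16). For Ereg the nearest gene, Tldc2, was 0.45 away, beside an SD of 1.75 for Ereg. Among the members themselves the closest pairs were Tgfa with Erbb2 (0.15), Erbb2 with Erbb3 (0.21), Tgfa with Erbb3 (0.26) and Hbegf with Btc (0.30), where Erbb2, Tgfa and Erbb3 varied little, with SDs of 0.12, 0.20 and 0.25. The farthest was Ereg with Hbegf (2.29). The 9 libraries share mice and group differences, so these distances are a description.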

How the data were processed

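RNA was sequenced from 6 organoid and 3 tumoroid libraries (poly-A selected, stranded, paired-end). Reads were aligned by the authors to mm10 with STAR (v2.5.3a) and counted on Gencode release 13. The authors deposited raw counts per gene, not normalised, and TPM, for which the authors scaled counts for gene length and library total. The counting tool and strand setting are not given in the sources used here. Gene positions were from Gencode release 21, on the same build.

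Genes reaching a TPM of 1 in any library entered the test with edgeR 4.0.16 (legacy quasi-likelihood fit, TMM factors, Benjamini-Hochberg adjustment) in R 4.3.3 on the counts as deposited. Organoid groups were compared over 6 libraries with mouse as a block, since the study fitted a sample effect. Same-numbered organoid libraries deviated together (r = 0.55, 0.34 and 0.55). Tumoroids were compared over 9 libraries without a block, which counts both organoid libraries of a mouse as separate. TPM were tested as log2(TPM + 1) with limma 3.58.1. The scripts were tested on simulated data. Other alternatives were limma voom, DESeq2 1.42.0, RLE and upper-quartile factors, other filters, organoid libraries summed by mouse, the block left out or added, and each mouse or tumoroid left out. Members, lists and alternatives were chosen with earlier results of these data known. All 10 members were described, with the 6 remaining family genes, and, of each pathway list, some of the up to 5 genes with the smallest p and, in the higher group, a mean of 100 counts or more. Etv4, Etv5, Egr1, Fos, Spred1, Spred2, Spred3, Spry2, Spry4, Sos1, Braf, Adam12, Errfi1, Fosl1, Parm1 and single marker genes fall outside that rule. They were named after their values were seen. Results of a few other genes are not reported here. The treatment-field labels were applied to counts of calls. Positions and promoters were read in Python 3.11.15, and figures were drawn with matplotlib 3.10.9.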

Additional observations from a re-analysis of the deposited data

How the results depend on the processing

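Between tumoroids and all organoids, Hbegf, Btc and Egfr had an adjusted p under 0.05 in all 15 alternatives, and 117 of 135 values of the 9 members kept their direction and side of the threshold. The 5 passing members became 3 with a log2 fold change above 1 also required and with organoid libraries summed by mouse, 7 on TPM, and 3 to 6 when a mouse or tumoroid was left out. The 33 passing pathway genes became 18 with the fold threshold. Adding a replicate block across tumoroids and organoids, whose numbers do not pair (r = −0.07 to 0.20), left 5 members passing in the comparison with all organoids and 5 against WT-cM-titled organoids. Against T-cM-titled organoids it gave 4, with Ereg added (−2.68, adjusted p = 0.012). Ereg also passed there with voom, DESeq2, TPM and without tumoroid 2, 5 of 14 alternatives in all. Against WT-cM-titled organoids, 3 members passed with upper-quartile factors and 2 to 6 with a library or mouse left out. Against T-cM-titled organoids 6 passed on TPM and 2 to 5 with 1 left out. Egfr missed the threshold without mouse 2 or 3 against WT-cM-titled (adjusted p = 0.054 and 0.062) and T-cM-titled organoids (0.078 and 0.061).

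Between organoid groups, the number of passing members was 0 in each alternative except without mouse 1 (range 0 to 3). The 5 passing pathway genes became 1 with the fold threshold, 1 with voom, 3 with DESeq2, 0 on TPM and 0 without the block, where 0 of 16208 genes passed (904 at an unadjusted p under 0.05), and 0 to 8 with a mouse left out. Values near 0 changed sign. Hbegf was −0.014 with voom, −0.017 with upper-quartile factors, −0.028 without the block and −0.18 to 0.17 with a mouse left out. With a mouse left out, Lrig1 was −0.18 to 0.022, Areg −0.41 to 0.028, and Egfr −0.0045 to 0.13. In tumoroids Erbb3 turned to 0.28, 0.37 and 0.19 on TPM against all, WT-cM-titled and T-cM-titled organoids. With a tumoroid or mouse left out, Tgfa was −0.054 to 0.32, −0.038 to 0.33 and −0.070 to 0.30 in these comparisons, and Erbb2 was −0.027 to 0.17 against T-cM-titled organoids. The cause of these changes was not tested. The median log2 fold change of all genes between tumoroids and organoids was 0.11 with RLE factors, 0.16 with TMM, 0.27 with upper-quartile factors and 0.52 on TPM.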
